A study of Mus musculus with 2 samples.

Results

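Gene-desert Bcl3 peaks were called in chromatin recovered with an anti-Bcl3 antibody. They lie outside genes and over 100 kb from the closest listed transcription start site (TSS). They numbered 305 of the 1130 peaks that the authors called (27.0%, exact 95% interval 24.4 to 29.7%). A peak was counted when the authors' summary marked it intergenic and the smallest distance to a TSS in their annotation was over 100 kb (276 peaks), or when that annotation listed no gene for it (29 peaks). Of all 687 intergenic peaks, the other 382 lay closer to a TSS. The study sequenced DNA bound by Bcl3 (ChIP-seq) in CGR8, an established line of mouse embryonic stem cells, and has 1 Bcl3 ChIP library and 1 input library. The cells of both grew on 0.1% gelatin in medium with 15% serum replacement and 1000 U/ml leukemia inhibitory factor (LIF), which keeps them undifferentiated, and no other treatment or allele is labelled. Nuclei were digested with an enzyme before the pull-down, which used a GeneTex antibody. Neither library has a replicate and the read depth is unknown, so the values below describe the peaks of a single ChIP library, and no comparison carries a test. Peaks of 1 library are not replicates of a condition. Intervals are exact and cover counting error over peaks only. The false discovery rates of the list run from 0.179 to 0.619, so a listed peak need not be a Bcl3 site.

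Bcl3, an atypical IκB protein, acts in the nucleus. It has no DNA-binding domain of its own and is brought to κB sites by homodimers of the NF-κB subunits p50 and p52, where it can activate or repress transcription. Gene deserts are long stretches without protein-coding genes. Many lie beside genes for developmental regulators, and some hold enhancers that act on a gene across a great distance, as those of Shh and Sox9 do. Other deserts hold repeats or rapidly evolving gene copies.

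The name gene desert held for most of the 305 peaks when set against a second annotation in the same files, but not for all. The distances come from a sheet whose 14602 entries all carry identifiers of protein-coding transcripts (NM), with 0 for noncoding transcripts (NR). The authors' summary sheet, which flags a peak as lying within a given distance of a gene, left 234 of the 305 (76.7%) farther than 100 kb from any gene. The other 71 (23.3%) were flagged within 100 kb, 28 of them upstream of a start, 53 downstream of a gene's end and 10 on both counts, and 13 of the 71 were flagged within 10 kb. Only 28 of the 71 had the start or end of a gene of the distance sheet within 100 kb. For the remaining 43 the distance sheet lists no gene start or end within 100 kb. Among the 234, 1 peak, on chromosome 14 at 6118050 to 6118174, was marked intergenic although the distance sheet placed its midpoint inside the span of LOC544988.

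Of the 305 peaks, 11 had a closest transcript in the authors' closest-transcript sheet, and 7 of these transcripts were noncoding. Such transcripts were rare in that sheet as a whole, with 43 noncoding among 623. The rule had left out peaks within 100 kb of a listed coding start, so this contrast follows at least in part from the choice of peaks. The peak on chromosome 3 at 22147825 to 22147999 lay 2379 bp upstream of Rprl2, a noncoding RNA gene, while the closest start in the distance sheet, that of Tbl1xr1, was 172.3 kb away. A peak on chromosome 12 at 20807100 to 20807424 lay 2990 bp past the end of the noncoding gene 1700030C10Rik, against 310.4 kb to the start of Ddef2 (Asap2). The peak on chromosome 4 at 125601000 to 125601149 lay 1521 bp upstream of the noncoding gene 2610028E06Rik and 100.9 kb from Csf3r. Among the 4 coding cases, the peak on chromosome 3 at 84617800 to 84617949 lay 1624 bp upstream of an alternative start of Fbxw7, a gene for a substrate-recognition subunit of an SCF ubiquitin ligase. The distance sheet gave 138.3 kb for the same peak, to another start of the same gene. The peaks at Alcam and AI480653 (Xxylt1) lay 5171 and 1489 bp past the ends of long genes whose starts were 209.2 and 127.4 kb away. The Alcam and AI480653 peaks are thus remote from the listed start and not from the gene. For the 6 peaks named here the log2 fold enrichments were 3.27 (Rprl2), 3.42 (1700030C10Rik), 2.59 (2610028E06Rik), 2.74 (Fbxw7), 3.29 (Alcam) and 2.71 (AI480653).

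Genes that a protein-coding list leaves out were also found in the intervals around the peaks. Listed genes lay on both sides of 157 of the 305 peaks, on 1 side of 119 and on neither side of 29, the list reaching 999.8 kb from a peak. For 132 of the 157, both flanking genes could be placed in a RefSeq gene table of GRCm38.p6 in the same order and at a spacing within 10% of the mm9 spacing, so that the genes between them could be counted by name, without positions. Long noncoding RNA genes lay in the interval of 108 of these 132 peaks (81.8%), pseudogenes in that of 110 (83.3%), microRNA genes in that of 7 (5.3%), and a protein-coding gene absent from the authors' list in that of 32 (24.2%). For intergenic peaks 5 to 100 kb from a TSS, 226 were placed the same way, and 107 (47.3%), 118 (52.2%), 4 (1.8%) and 33 (14.6%) of them had such genes in the interval. The intervals were of unequal length, with a median of 678.1 kb (596.4 to 773.5) for gene-desert peaks and 102.0 kb (79.2 to 118.2) for intergenic peaks 5 to 100 kb away. Per Mb of distinct interval, long noncoding RNA genes numbered 3.91 around gene-desert peaks and 6.88 around the nearer intergenic peaks, and protein-coding genes absent from the list 0.570 and 1.18. MicroRNA genes numbered 0.518 and 0.184 per Mb, and 44 of the 50 around gene-desert peaks were in 1 interval.

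That interval lies on chromosome 12 between Rtl1 and Dio3, imprinted genes of the Dlk1-Dio3 domain, and is 683.8 kb long in mm9. Its peak, at 111151175 to 111151299, lay 317.6 kb upstream of Rtl1, the closest listed gene, and had 2.59 as its log2 fold enrichment, 5.73 as its −log10 Poisson p and 0.553 as its false discovery rate. The interval holds 78 RefSeq genes, none of them protein-coding, including the noncoding host transcript Mirg and 44 microRNA genes with 82 mature microRNAs. Their distance to the peak is not known here, because the 2 builds differ. The first lines below show the microRNAs of the other 6 intervals. The last 4 show arms of this cluster, chosen because they share a seed (bases 2 to 8, in capitals) with another arm in it. Sequences are mature microRNAs of RefSeq (GRCm38.p6), 5′ to 3′.
mmu-miR-6344: gUUUUCCUacuguuucccuuuu
mmu-miR-378d: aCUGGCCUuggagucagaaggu
mmu-let-7j: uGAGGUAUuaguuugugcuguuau
mmu-miR-6420: aCUAAUCCuauaaaaucaaac
mmu-miR-12205-3p: aAACCAACugggaaacacaaau
mmu-miR-12205-5p: uGUGUUUCccaguugguuuga
mmu-miR-148a-3p: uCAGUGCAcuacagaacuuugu
mmu-miR-148a-5p: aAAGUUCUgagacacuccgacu
mmu-miR-379-3p: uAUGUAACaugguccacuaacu
mmu-miR-411-3p: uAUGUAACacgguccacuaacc
mmu-miR-379-5p: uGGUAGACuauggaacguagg
mmu-miR-1193-5p: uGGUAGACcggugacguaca

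In the Rtl1 to Dio3 interval 8 seeds were shared by 2 distinct mature sequences, among them AUGUAAC of miR-379-3p and miR-411-3p and GGUAGAC of miR-379-5p and miR-1193-5p. The other 6 intervals held 1 microRNA gene each, and the arms shown for them all differ in seed. miR-148a, whose gene is in the interval between Npvf and Nfe2l3, accompanied a peak of log2 fold enrichment 2.65, 350.1 kb from the start of Nfe2l3. The peaks in the intervals of miR-6344 (closest gene Irs1, 3.64), miR-378d (Xrcc6bp1, 3.56) and let-7j (Pdha2, 3.33) were all at 0.179, the lowest false discovery rate in the list. The peaks with miR-6420 (Man2a1, 3.12) and miR-12205 (Tbx18, 2.66) had rates of 0.241 and 0.485. None of these values measures a microRNA. No sequence of a peak itself is shown, since a genome of build mm9 was not used here.

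The enrichment of the gene-desert peaks ranged from 2.51 to 3.71 on the log2 scale, with a median of 2.93, or 7.62-fold (interval of the median 2.89 to 2.97). This fold is the authors' greatest value within each peak, for which the file header names no denominator. The median was 2.91 for the 293 intergenic peaks 5 to 100 kb from a TSS, 2.95 for the 285 peaks inside a gene and over 5 kb from a TSS, 2.95 for the 247 peaks within 5 kb and 2.93 for all 1130. The intervals of these medians overlap. Differences appeared in the upper part of the distribution. The third quartile was 3.18 for gene-desert peaks, 3.17 for nearer intergenic peaks, 3.23 inside genes and 3.37 within 5 kb of a TSS, and the greatest values were 3.71, 3.87, 4.02 and 3.95. A log2 fold enrichment of at least 3 was reached by 124 gene-desert peaks (40.7%, 35.1 to 46.4%), near the 42.7% of all peaks.

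**Figure D1:**
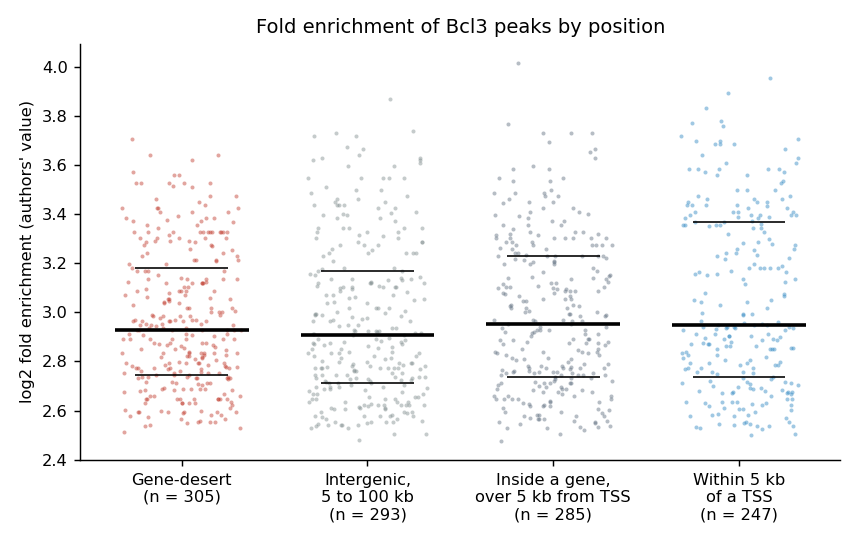
Each point is 1 peak, with its log2 fold enrichment on the vertical axis, in 4 position classes (gene-desert peaks at the left); the thick line is the median and the thin lines are the quartiles. The medians lie between 2.91 and 2.95, and the gene-desert peaks end at 3.71 while each other class reaches at least 3.87.

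Few gene-desert peaks stood at the top of the authors' ranking, which follows the fold enrichment. Among gene-desert peaks the false discovery rate also rose in steps down this ranking, so it is not a measure separate from fold. The first 113 ranks, 10% of all peaks by construction, held 18 gene-desert peaks (5.9% of the 305, 3.53 to 9.17%). They held 29 nearer intergenic peaks (9.9% of 293, 6.73 to 13.9%), 26 inside a gene (9.1% of 285, 6.05 to 13.1%) and 40 within 5 kb of a TSS (16.2% of 247, 11.8 to 21.4%). Put as a share of those 113 peaks, 15.9% were gene-desert peaks and 35.4% lay within 5 kb of a TSS. In the other 9 blocks of 113 ranks the gene-desert share lay between 23.0 and 35.4%. A false discovery rate of 0.179, the lowest value, was held by 55 gene-desert peaks (18.0%, 13.9 to 22.8%), where 21.1% of all peaks had it. Nearer intergenic peaks (18.8%) and peaks inside a gene (18.9%) had similar shares, so this share is not particular to gene-desert peaks. Of the peaks within 5 kb of a TSS, 74 had that rate (30.0%, 24.3 to 36.1%). These intervals cover counting error over peaks of 1 library and are not a test between classes. A rate of 0.179 allows for false peaks even there, and the median rate of the gene-desert peaks was 0.296, with a maximum of 0.607. Over all 1130 peaks the rate reached 0.619. Read as a q-value, that rate means that more false than true peaks are expected in the full list. No single peak is thus established as a Bcl3 site.

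**Figure D2:**
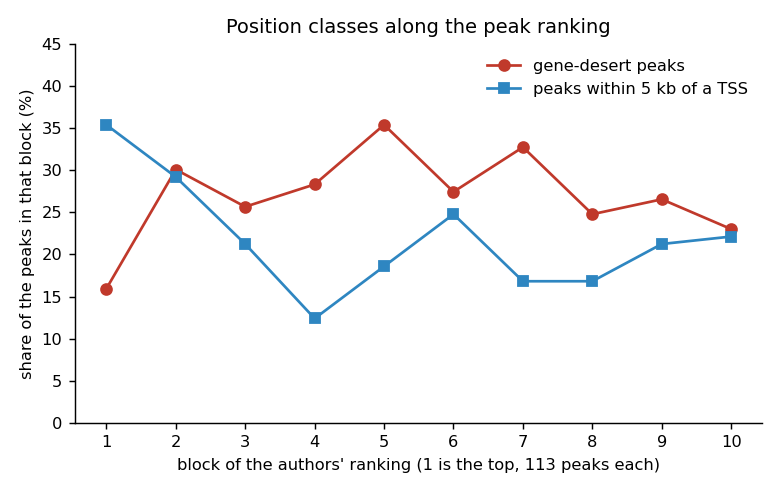
Share (%) of the peaks in each of 10 blocks of the authors' ranking (113 peaks each, 1 being the top) that are gene-desert peaks (circles) or lie within 5 kb of a TSS (squares). In block 1 the shares are 15.9 and 35.4%, and in block 5 they are 35.4 and 18.6%.

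The authors' sheet also gives each peak a length and a Poisson score. Gene-desert peaks were 100 to 500 bp long with a median of 200 bp. Nearer intergenic peaks and those inside genes had the same median and reached 675 and 575 bp, while peaks within 5 kb of a TSS had a median of 250 bp and reached 875 bp. Longer gene-desert peaks had a greater fold enrichment (Spearman's rho 0.77 across 305 peaks, which share 1 library), as in all other peaks (0.74 across 825). The −log10 Poisson p, the authors' smallest p within a peak, had a median of 5.77 in gene-desert peaks (5.67 to 5.91), 5.87 in nearer intergenic peaks, 5.72 inside genes and 5.86 within 5 kb of a TSS. It exceeded 10 in 4 gene-desert peaks (1.31%, 0.358 to 3.32%), where 2.57% of all peaks did. Score and fold were almost unrelated in gene-desert peaks (rho 0.027). The lowest score was 5.00 in every class, and the lowest log2 fold enrichment of the list was 2.48. The medians and this relation thus describe only peaks above those levels. Ties in fold were common, since the 305 peaks took 183 distinct values and 184 peaks shared their value with at least 1 other, 12 at a single value of 3.33.

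**Figure D3:**
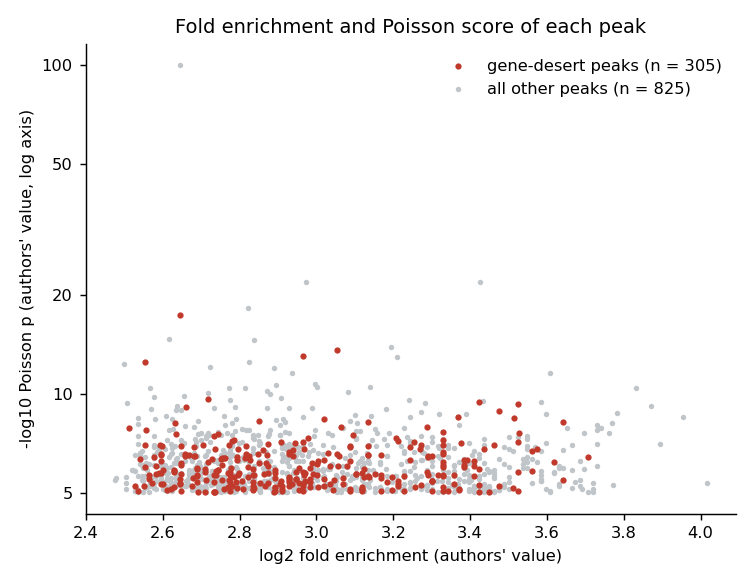
Log2 fold enrichment (horizontal) against the −log10 Poisson p (vertical, log axis) of the 305 gene-desert peaks (red) and the 825 other peaks (grey). The 4 gene-desert peaks above 10 have log2 fold enrichments from 2.55 to 3.05, outside the top of the fold range.

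The 10 gene-desert peaks of greatest fold all had a false discovery rate of 0.179, as did every gene-desert peak with a log2 fold enrichment of at least 3.30. The first 8 of the 10 all lay downstream of the closest listed gene. First, at 3.71 (13.1-fold), came a peak 502.6 kb from the start of Fat4, which encodes an atypical cadherin of planar cell polarity, on chromosome 3 at 39288275 to 39288599. Next were peaks 421.7 kb from Fut8, a fucosyltransferase gene (3.64), and 440.5 kb from Irs1, which encodes an adaptor of the insulin receptor (3.64). The Irs1 peak, on chromosome 1 at 81847300 to 81847724, had a Poisson score of 8.18 as well. A peak on chromosome 16 at 30855050 to 30855524 lay 226.2 kb from the start of AI480653 and 100.4 kb from its end (3.62). On chromosome 7, the peak at 77307875 to 77308224 lay 197.4 kb from Nr2f2, the gene of the orphan nuclear receptor COUP-TFII (3.57). The peaks of Sorcs3, a sorting receptor gene (987.0 kb), and Xrcc6bp1 (Atp23; 411.2 kb) both had 3.56. Bnc2, a zinc finger gene, had its peak 508.1 kb away (3.53). A tie of 4 peaks at 3.52 followed, from which the authors' rank order took the last 2 of the 10. These were a peak on chromosome 8 with no listed gene, at 99612050 to 99612374, and a peak 303.6 kb upstream of Dab1, the cytoplasmic adaptor of Reelin signalling. Of these 10, 0 were flagged within 100 kb of a gene.

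Ranking the same peaks by the Poisson score gave other loci. Above 10 were the peaks closest to LOC547127 (17.4), Mup1, a major urinary protein gene in a cluster of near copies (13.6), Slc10a2, the ileal bile acid transporter gene (13.0), and Ube3a, an imprinted ubiquitin ligase gene (12.5). Their log2 fold enrichments were 2.65, 3.05, 2.96 and 2.55, and their false discovery rates 0.507, 0.261, 0.296 and 0.592. The first 2 were flagged within 100 kb of a gene. Then followed Tcfap2a (Tfap2a; 9.62), a peak with no listed gene on chromosome 14 at 92197575 to 92197849 (9.46), Cd180 (9.29), LOC544988 (9.13), a peak with no listed gene on chromosome 4 at 79347900 to 79348249 (8.85) and Efnb2 (8.46). Both peaks without a gene, together with those of Cd180 and Efnb2, were also at the lowest false discovery rate, with log2 fold enrichments of 3.42, 3.48, 3.52 and 3.37.

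For the 276 peaks with a listed gene, distances from the closest TSS, which chose these members, ran from 100.2 to 1652.6 kb with a median of 325.6 kb. By distance, 88 peaks lay 100 to 200 kb away, 103 lay 200 to 500 kb away and 85 lay farther, the 29 peaks with no listed gene not being counted. Median log2 fold enrichments in these classes were 2.87, 2.94 and 2.95, and fold showed little relation to distance across the 276 peaks with a listed gene (rho 0.044). The 5 just past the threshold were the peaks of Phldb2 (100.2 kb, log2 fold enrichment 2.61), Csf3r (100.9 kb, 2.59), Sox4 (101.1 kb, 3.00), Sh3gl3 (101.5 kb, 3.38) and Man2a1 (105.0 kb, 3.12). The 5 just short of it were those of Tdpoz5 (98.9 kb, 2.84), Tmtc2 (98.1 kb, 2.81), Mdga1 (97.3 kb, 3.21), C6 (96.3 kb, 2.74) and Aard (96.3 kb, 2.75).

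The rule did not name the side of the gene, but its intergenic flag leaves out peaks inside genes, which lie past the starts of those genes. With the flag both sides were equally filled, while without it 42.5% of the peaks over 100 kb away lay upstream. The balance thus depends on the rule. Of the 276 peaks with a listed gene, 138 lay upstream and 138 downstream of the closest TSS. They differed in fold at the top, where 14 downstream peaks (10.1%, 5.66 to 16.4%) and 2 upstream peaks (1.45%, 0.176 to 5.14%) were among the first 113 ranks. The median log2 fold enrichment was 2.96 (2.91 to 3.02) downstream and 2.87 (2.82 to 2.95) upstream, with overlapping intervals. This split was noticed after the values were seen and was not tested.

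**Figure D4:**
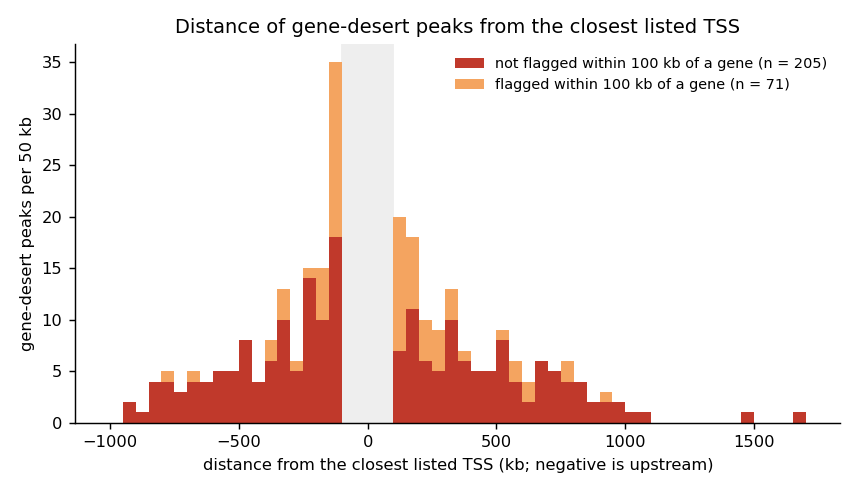
Number of gene-desert peaks per 50 kb of signed distance from the closest listed TSS (kb, negative upstream), for the 205 peaks with a listed gene that are not flagged within 100 kb of any gene (red) and the 71 that are (orange, stacked above). The grey band is the range that the threshold of 100 kb excludes, and 138 peaks lie on each side.

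Peaks with no listed gene have no distance, so the farthest could be ranked only among the 276 with one. The farthest of these, on chromosome 3 at 24578150 to 24578299, was 1652.6 kb from the start of Nlgn1, which encodes a postsynaptic adhesion protein, and 752.5 kb from any listed gene edge (log2 fold enrichment 2.79). Cntnap5a, of the Caspr family, followed at 1487.3 kb (2.84), Ncam2, a neural cell adhesion gene, at 1093.5 kb (2.84) and Dbc1 (Brinp1) at 1018.3 kb (2.63). Part of such a distance is the gene itself, as the closest edges were 591.8 kb away for Cntnap5a and 669.9 kb for Ncam2. The other 6 of the farthest 10 with a listed gene were the peaks of Sorcs3 (987.0 kb), Slc16a7 (982.2 kb), Ddef2 (946.2 kb), 1700010C24Rik (Fam135b, 935.2 kb), Khdrbs3 (935.0 kb) and Nxph1 (919.3 kb). Among these 10 only the Sorcs3 peak was at the lowest false discovery rate, and the Khdrbs3 peak was the only one flagged within 100 kb of a gene. Closest genes were longer around gene-desert peaks, with a median span of 43.3 kb (28.7 to 57.8), than around nearer intergenic peaks (18.7 kb, 14.3 to 23.8), and were longest for peaks inside a gene (63.8 kb).

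No gene at all was listed for 29 gene-desert peaks. Their median log2 fold enrichment was 3.07 (2.83 to 3.18), their Poisson scores reached 9.46, and 6 of the 29 (20.7%, 7.99 to 39.7%) were at the lowest false discovery rate. Chromosome 14 held 8 of them in 2 runs. The first run had 4 peaks within 742.8 kb, from 83048250 to 83791049, with log2 fold enrichments from 2.60 to 3.21, and the second had 4 peaks within 1159.9 kb, from 91037975 to 92197849, from 2.89 to 3.42. Chromosome 5 held 3 within 597.1 kb, from 78934450 to 79531549 (2.79 to 3.09). The highest ranked of the 29 were those on chromosome 8 at 99612050 (3.52), chromosome 4 at 79347900 (3.48), chromosome 14 at 92197575 (3.42), chromosome 4 at 27382100 (3.36), chromosome 16 at 40361025 (3.33) and chromosome 14 at 91178725 (3.33). After these came chromosome 16 at 54141400 (3.27), chromosome 14 at 83790650 (3.21) and 91433075 (3.18), and chromosome 4 at 37474950 (3.14).

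The distance to other peaks is partly set by the rule, since a peak over 100 kb from every listed TSS cannot lie beside a peak that is close to one. The nearest other Bcl3 peak of any class was a median of 871.7 kb away from a gene-desert peak, against 651.4 kb for nearer intergenic peaks, 690.6 kb for peaks inside a gene and 543.2 kb for peaks within 5 kb of a TSS. It was within 100 kb for 25 of 304 gene-desert peaks (8.22%, the Y chromosome having no other peak), 40 of 293 nearer intergenic peaks (13.7%), 31 of 285 peaks inside a gene (10.9%) and 41 of 247 peaks within 5 kb of a TSS (16.6%). Within 10 kb the counts were 2, 16, 8 and 16. Among gene-desert peaks alone there were 12 pairs within 100 kb, formed by 23 peaks. Closest together was a pair 1526 bp apart on chromosome 1, from 48548475 to 48550274, with C230029F24Rik as the closest gene (log2 fold enrichments 2.86 and 2.67). On chromosome 16, 3 peaks formed a chain between BC022623 (Fam43a) and AI480653, with 32.8 and 98.5 kb between them, at 3.02, 3.62 and 2.71. Pairs near Mgst1 (40.8 kb apart, 2.87 and 3.12) and Slitrk6 (52.6 kb apart, 3.44 and 3.27) followed, then a pair on the X chromosome 54.1 kb apart (3.05 and 2.69).

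A gene was seldom the closest one to several gene-desert peaks. The 276 peaks had 244 closest genes, of which 214 had 1 peak, 28 had 2 and 2 had 3. Lrfn5, which encodes a synaptic adhesion protein, had peaks 720.8 and 396.6 kb upstream and 714.5 kb downstream of its start, with log2 fold enrichments of 3.33, 2.65 and 2.93. Dbc1, a neural gene that restrains cell cycle progression, had peaks 344.4 kb upstream and 826.3 and 1018.3 kb downstream, at 3.34, 2.98 and 2.63. In each of them the strongest peak was at the lowest false discovery rate and the other 2 were not (0.507 and 0.296 for Lrfn5, 0.296 and 0.529 for Dbc1). Since the rate follows the fold, these rates add nothing to the folds.

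Short lists of named genes, which do not cover their classes in full, were read for the closest gene of each peak, with the share among all 1101 peaks that have a listed gene as the background. The closest gene need not be the one a distant site acts on. Genes of a 71-name list of synaptic adhesion and axon guidance were closest to 10 of the 276 gene-desert peaks (3.62%, 1.75 to 6.56%), 3 of 293 nearer intergenic peaks (1.02%) and 2.45% of all peaks. Those of a 23-name list of cadherins and protocadherins were closest to 6 (2.17%, 0.802 to 4.67%), to 0 of 293 (a count of 0 allows up to 1.25%) and to 0.908% of all peaks. Those of a 48-name list of ion channels and neurotransmitter receptors were closest to 3 (1.09%), to 1 of 293 (0.341%) and to 1.09% of all peaks. The channel share was that of all peaks, so it sets gene-desert peaks apart in no way. The adhesion and cadherin shares stood above those of nearer intergenic peaks and of all peaks. Their intervals include the shares of all peaks. Peaks inside genes and peaks within 5 kb of a TSS were not counted apart for these lists. The adhesion list gave Slitrk6 (log2 fold enrichments 3.44 and 3.27), Lphn2 (Adgrl2, 3.17), Slitrk5 (2.98), Erbb4 (2.91), Ncam2, Cntnap5a, Nlgn1 and Epha6 (2.76 and 2.68). Slitrk genes encode synaptic adhesion proteins with leucine-rich repeats, Lphn2 an adhesion receptor coupled to G proteins, and Erbb4 a neuregulin receptor. The cadherin list gave Cdh10 (3.24 and 2.77), Cdh11 (3.06), Pcdh18 (2.74) and Pcdh10 (2.63 and 2.58). The channel list gave Kcnip4 (2.97), the potassium channel gene Kcnj3 (2.59) and the serotonin receptor gene Htr2c (2.60). Genes of these classes that the lists do not name, such as Lrfn5 and Efnb2 for adhesion, Fat4 and Cdh5 for cadherins and Kcna4 and Kcnj2 for channels, were also closest genes and are not in the counts.

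Genes of a 94-name list of developmental transcription factors were closest to 12 gene-desert peaks (4.35%, 2.27 to 7.47%), 6 of 293 nearer intergenic peaks (2.05%, 0.755 to 4.40%) and 2.36% of all peaks. These were 11 genes, with a median distance of 236.1 kb. Greatest in fold were Nr2f2 (3.57), the LIM-only factor gene Lmo4 (3.52, 166.5 kb downstream), the forkhead gene Foxp1 (3.21, 274.7 kb downstream) and Tcfap2b (Tfap2b, 3.06, 450.3 kb downstream). Only the peaks of Nr2f2 and Lmo4 were at the lowest false discovery rate, and the peak of Foxp1, 41.8 kb past the end of Foxp1, was flagged within 100 kb of a gene, as were those of Sox4 and Foxa2 and 1 of Id2. Sox4, a high-mobility-group factor gene (3.00), Dach1 (2.97), Foxa2, a pioneer factor of endoderm (2.93, 283.4 kb downstream), and Id2, an inhibitor of basic helix-loop-helix factors (2.78 at 2 peaks, 310.2 and 120.5 kb upstream), came next. The Pou3f4, Tbx18 and Sall1 peaks had 2.74, 2.66 and 2.65. Outside the lists, and named after their values were seen, were 2 loci known for regulation from afar. A peak on chromosome 5 lay 326.5 kb upstream of Shh, the morphogen gene, with 2.56 and a false discovery rate of 0.573. This Shh peak was also flagged within 100 kb of a gene, downstream of its end. A peak on chromosome 11 lay between Kcnj2 and Sox9, in an interval of 1706.6 kb, 735.0 kb from Kcnj2 and 971.4 kb from Sox9 (3.21, rate 0.196).

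Counts for the next lists were small. Of 34 genes of the pluripotency network, only Myc, with a peak 530.9 kb upstream at a log2 fold enrichment of 2.87 and a rate of 0.336, was a closest gene, which gives 1 of 276 gene-desert peaks (0.362%, 0.00917 to 2.00%), 5 of 293 nearer intergenic peaks (1.71%) and 1.09% of all peaks, a background within the first interval. The list of 28 LIF and NF-κB pathway genes had 0 of 276, which allows up to 1.33%, against 2 of 293 nearer intergenic peaks (0.683%) and 0.363% of all peaks. Olfactory and vomeronasal receptor genes, the great chemosensory families, were closest to 0 of 276 gene-desert peaks (up to 1.33%), to 11 of 293 nearer intergenic peaks (3.75%, 1.89 to 6.62%) and to 1.63% of all peaks. A peak between closely spaced starts cannot be over 100 kb from both, so the rule itself can lower such a count. Its part in this contrast was not tested. Zinc finger protein genes were closest to 4 gene-desert peaks (1.45%, and 1.45% of all peaks), namely Zfp369 (3.15), Zfp804a (2.97), Zfp462 (2.91) and Zfp64 (2.79). Symbols that start like those of families in clusters had 5 (1.81%, against 1.27% of all peaks), namely Ugt8a (3.10), Mup1 (3.05), Serpinb8 (2.89), Speer2 (2.77) and Klra2 (2.58). The match is by symbol only and does not show that each gene lies in a cluster. Uncharacterised gene names made up 23 (8.33%, against 9.36% of all peaks). The prefixes of microRNA and small RNA symbols matched 0 gene-desert peaks and 0.182% of all peaks, but they also match coding symbols. As the distance sheet lists protein-coding transcripts only, these counts say nothing of small RNA genes.

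Gene-desert peaks were unevenly spread over the chromosomes as a share of the peaks there. They made up 33 of 73 peaks on chromosome 3 (45.2%, 33.5 to 57.3%), 22 of 48 on chromosome 12 (45.8%, 31.4 to 60.8%), 16 of 37 on chromosome 16 (43.2%, 27.1 to 60.5%) and 21 of 50 on the X chromosome (42.0%, 28.2 to 56.8%). Low shares were found on chromosome 11 with 4 of 44 (9.09%, 2.53 to 21.7%), chromosome 7 with 8 of 73 (11.0%, 4.85 to 20.5%), chromosome 13 with 8 of 66 (12.1%, 5.38 to 22.5%) and chromosome 2 with 12 of 84 (14.3%, 7.61 to 23.6%). By number, chromosomes 3, 1 (27 peaks) and 4 (25 peaks) held the most, and chromosome Y (1 peak, its only one), chromosome 11 and chromosome 19 (5 peaks) the fewest. Gene density differs between chromosomes, and its part in these shares was not tested.

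**Figure D5:**
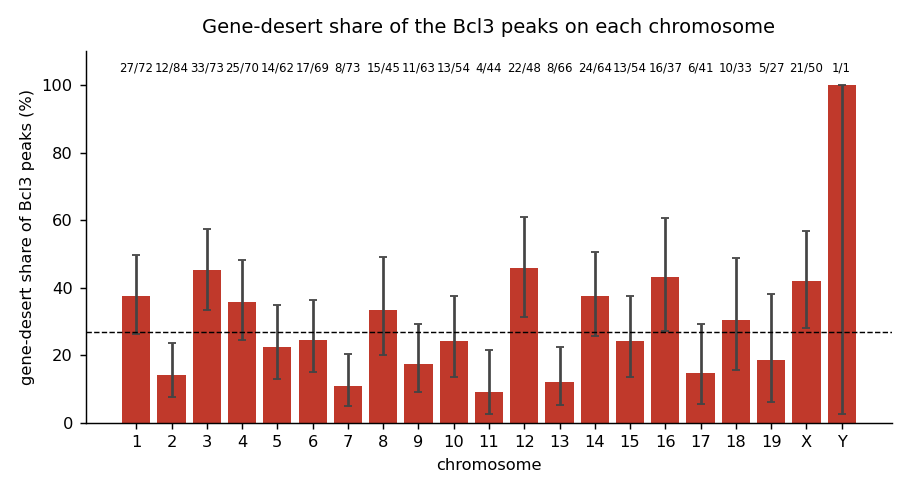
Share of the Bcl3 peaks of each chromosome that are gene-desert peaks, with exact 95% intervals; the numbers above the bars are gene-desert peaks over all peaks, and the dashed line is the share over all 1130 peaks, 27.0%. Chromosomes 3, 12, 16 and X are among those above the line and chromosomes 7, 11, 13 and 2 among those below it, while the single peak of chromosome Y leaves an interval from 2.5 to 100%.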

How the data were processed

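The peaks come from 1 Bcl3 ChIP library, and the submitters' processing notes name mm9 as the build. For the aligner, the peak caller and the use of the input, nothing is given in the sources used here. The authors deposited for each peak a false discovery rate (here a q-value), a log2 fold change, a −log10 Poisson p-value and a maxT score, and the score was not used. Per the file headers, the fold and p are the extreme values within the peak. Distances run from the peak midpoint to listed starts.

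Peaks were classed by the summary flag and the smallest TSS distance in Python 3.11.15 with pandas 2.3.3 and SciPy 1.17.1. Shares carry exact Clopper-Pearson 95% intervals and medians exact binomial ones, tested on simulated data. Gene names were matched to RefSeq GRCm38.p6 (242 of 244 closest genes). Called peaks were those of the lowest false discovery rate, a log2 fold enrichment of at least 3, a Poisson score over 10 or the first 113 ranks. Named peaks were the 10 of greatest fold, of greatest Poisson score and of greatest distance, up to 10 without a gene, 5 on each side of the threshold, up to 5 neighbouring groups, genes with 3 peaks, up to 4 genes per list and the extreme chromosomes. Peaks beside transcripts or microRNA genes, further list members, Shh, Sox9 and the chromosomes named for their share were chosen after their values were seen. Alternatives were 3 other distance thresholds, no intergenic flag, stricter peak thresholds, merged peaks, distances from the peak edge, and leaving out the top peaks, X and Y, or peaks with no gene. Members and lists were chosen with earlier results of these data known. The planned sequence and κB motif counts were not run. Precision is limited by the unknown depth and by the single library.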

Additional observations from a re-analysis of the deposited data

How the results depend on the processing

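Of 117 values recomputed over 13 settings for 9 results, 89 stayed within the interval of the reported value (or, for the number of peaks, within 1.5 times) and 28 moved. Most moves follow from the construction of the setting. With a threshold of 50 kb the share of all peaks was 33.7%, with 200 kb 19.2%, and with 500 kb 10.1% (114 peaks, 40.0% of them upstream). Without the intergenic flag it was 35.5%, with 42.5% upstream. Among peaks of the lowest false discovery rate, 55 remained (23.1% of those peaks), with a median log2 fold enrichment of 3.38, a Poisson score of 6.04, 100% at that rate and 42.9% upstream. The peaks above the median fold left 153 (median 3.18, 35.9% at the lowest rate), and those above the median Poisson score 147 (median score 6.53). Leaving out the 71 peaks flagged within 100 kb of a gene, an alternative chosen after seeing the data, gave a share of 20.7%. Measuring from the peak edge, merging peaks within 1000 bp, dropping the top 1% of peaks, dropping peaks with no listed gene and dropping X and Y moved none of the 9 results. The edge, merging and top 1% settings each kept the same 305 gene-desert peaks, so nearly all their values could not change. Their values, counted among the 89, therefore do not measure stability. No paired analysis was possible because each group has 1 library. Read depth is unknown and no replicate exists, so absence from the list does not show absence of Bcl3.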

Other observations

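The 21 gene-desert peaks of the X chromosome had log2 fold enrichments from 2.54 to 3.05, against a median of 2.93 over all 305, and 0 of the 21 were at the lowest false discovery rate, which 18.0% of the 305 and 21.1% of all peaks had. As the rate follows the fold, the 0 of 21 restates the low folds. Other X-linked peaks were not compared. Their closest genes included Pou3f4 and Htr2c. They also included multicopy or testis genes such as OTTMUSG00000016405 (Btbd35f18, 3.05), Gmcl1l (Btbd35f1, 2.69) and LOC100042254 (Btbd35f4, 2.69), members of 1 family by their later RefSeq symbols. Genes of signalling pathways stood beside several autosomal peaks, chosen here after their values were seen. A peak lay 541.6 kb upstream of Fzd8, a Wnt receptor gene (3.24), another 111.2 kb downstream of Bambi, a decoy receptor of the TGF-β family (3.12), and another 201.9 kb upstream of Gli3, a transcription factor of Hedgehog signalling (2.94).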
